A study of Drosophila melanogaster with 6 samples.

Results

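The chemosensory receptor genes of Drosophila melanogaster were compared between heads of adults carrying a mutation of mir-210, a microRNA gene, and heads of adults of w1118, a white-eyed laboratory strain that served as control. The members are the 148 genes, of 13541 in the table analysed, whose name is Or, Gr or Ir directly followed by a digit, or is Orco: 51 odorant receptor (Or) genes with Orco, 48 gustatory receptor (Gr) genes and 49 ionotropic receptor (Ir) genes. The rule uses names and no measured value. Each group had 3 samples of total RNA from adult heads. The mutant allele is labelled only M22-3, while its nature, the sex and age of the flies and how many were pooled were not given in the sources used here. Separate collections or cultures are not stated for the samples of a genotype, so the p-values speak only of the spread between samples, which may be technical.

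Olfactory neurons sit in hair-like sensilla on the antenna and the maxillary palp, and each neuron usually makes 1 tuned Or protein that forms a channel only together with Orco, the shared co-receptor. Gr proteins serve taste neurons of the mouthparts and legs, and a pair of them forms the carbon dioxide receptor of the antenna. Ir proteins are relatives of glutamate receptors that sense acids, amines, humidity and temperature with the co-receptors Ir8a, Ir25a, Ir76b and Ir93a. In heads these transcripts come from few neurons, so the organs that carry them contribute a small part of the RNA.

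The deposited table gives 1 mean per group, and the 3 libraries behind each mean were recovered from it as whole reads for all 148 members. They have no replicate number, and within each group they are called deepest, middle and shallowest. Reads in recovered genes ranged from 6257409 to 9194231 in mutant libraries and from 8915003 to 16462836 in control libraries. Levels below are normalised read counts, that is, reads divided by the authors' size factor of the library. A gene was judged where the larger of its group means was 20 or more. This held for 55 members, 30 Or, 10 Gr and 15 Ir, in which a library had between 2 and 3895 reads, with a median of 38. The noncoding RNA CR32553, the nearest row beside mir-210, had 2.06, 10.9 and 4.46 in the mutant libraries against 563, 445 and 324 in the control libraries. The deepest library of each group stood apart from the other 4 for many genes. In the head check, the photoreceptor rhodopsin gene ninaE stood in the authors' deposited table at a mean of 185443 for the mutant and 590062 for the control.

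Most receptor transcripts of the head were not called as different between the genotypes. In the authors' deposited table, 2 of the 55 judged members were called at an adjusted p under 0.05: Gr64f, a sugar co-receptor, fell and Ir68a, a receptor for moist air, rose. These are 3.64% of the judged members, near the 5.10% called among all tested genes at the same floor, where 2.93% were higher and 2.17% lower. Counting unadjusted p-values under 0.05 gives 7 judged members in the authors' deposited table, 2 higher and 5 lower, 12.7% against 13.0% of tested genes at that floor. They were Ir68a and Or42b, higher, and Gr64f, Ir64a, Or92a, Or85a and Or59b, lower. limma (trend and robust options) on the recovered libraries called 0 of the 55, against 1.18% of all genes at the floor. It had 8 members at an unadjusted p under 0.05, these 7 and Or42a. For limma the share of all genes under that unadjusted p was not computed, so the 8 are not a result about the receptors.

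Most receptors had a log2 fold change a little below 0. Of the 55 judged members, 43 had a log2 fold change below 0 in the authors' deposited table and 12 above, that is 78.2% below, against 52.5% of tested genes at the floor. The median over the judged members was -0.24 in the authors' deposited table, against -0.02 over all genes at the floor. It was -0.25 for Or, -0.25 for Gr and -0.18 for Ir. Fewer receptor neurons and less RNA per neuron cannot be told apart in whole heads. The 3 mutant libraries lay wholly below the 3 control libraries for 12 judged members (21.8%, against 8.80% of recovered genes at the floor) and wholly above them for 3 (5.45%, against 9.89%). Together, 15 members (27.3%) had no overlap, against 18.7% of genes.

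**Figure D1:**
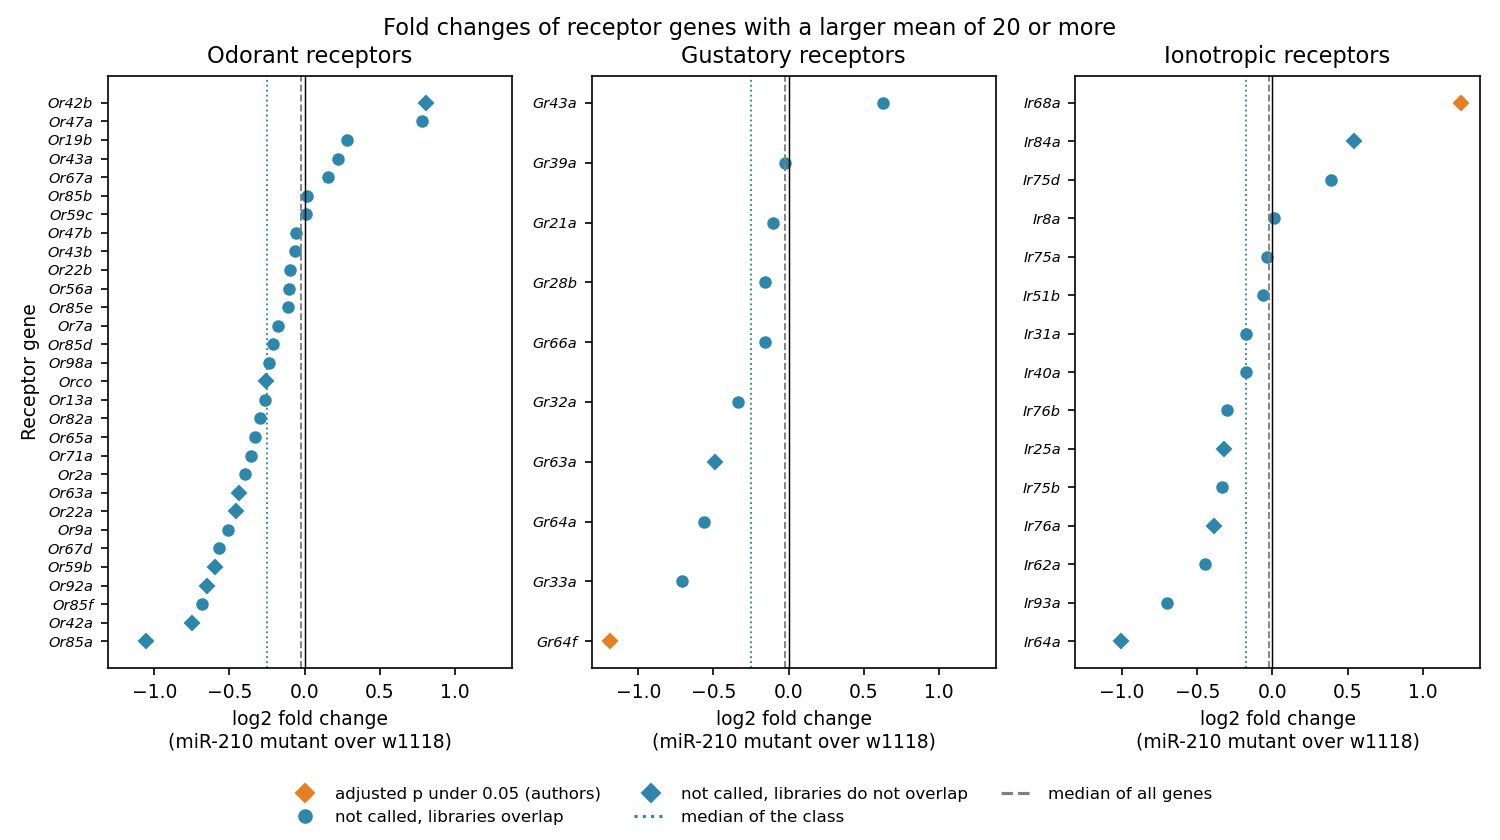
The authors' log2 fold changes, mutant over control, of the 55 judged receptor genes, by class; diamonds mark genes whose mutant and control libraries do not overlap, orange the 2 genes called at an adjusted p under 0.05. Blue dotted lines are the class medians (-0.25, -0.25 and -0.18), the grey dashed line the median of all genes at the floor (-0.02), and most points lie left of 0.

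Summed over members, each class was lower in the mutant libraries on average. The Or genes summed to 3478, 3559 and 3074 normalised reads in the mutant libraries, deepest first, against 3925, 4138 and 3903 in the control libraries. No mutant library reached the lowest control library, and the ratio of the means was 0.845. Without Orco, which held 59.0% of the mutant sum and 59.7% of the control sum, the Or genes gave 1446, 1412 and 1291 in the mutant libraries against 1663, 1732 and 1431 in the control libraries, and the groups overlapped. The Gr genes gave 429, 338 and 338 in the mutant libraries against 474, 488 and 423 in the control libraries. These Gr sums overlapped only between the deepest mutant and the shallowest control library. The Ir genes gave 1822, 1647 and 1333 in the mutant libraries against 2115, 1705 and 1758. in the control libraries In this class the deepest library was the highest of its group in both genotypes, and the groups overlapped.

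**Figure D2:**
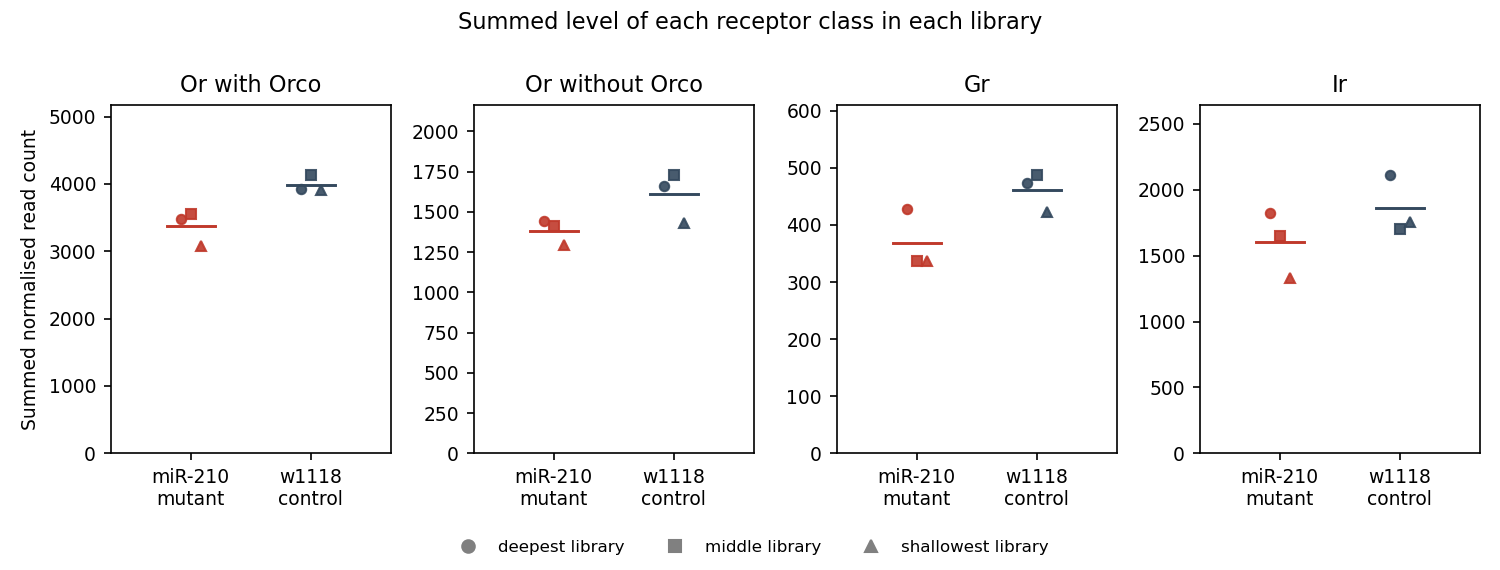
Summed normalised read counts of the Or genes with and without Orco, the Gr genes and the Ir genes in each mutant and control library; horizontal lines are group means. The mutant means are 3370, 1383, 368 and 1601, against 3988, 1609, 462 and 1859 in the control.

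Orco, the co-receptor of all tuned Or proteins, was the most abundant receptor transcript in both genotypes, with 1024 normalised reads per kilobase of gene model in the mutant and 1226 in the control. It had 2032, 2147 and 1782 normalised reads in the mutant libraries against 2262, 2406 and 2472 in the control libraries. All mutant libraries were below all control libraries, by a margin smaller than the range within the mutant. Its log2 fold change was -0.26 in the authors' deposited table (adjusted p = 0.626), and limma gave -0.26 with a standard error of 0.15. Ir76b, co-receptor of amine and taste receptors, stood next in the order with 124 per kilobase in the mutant and 152 in the control, followed by Ir76a and Ir25a in both genotypes.

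Among the Ir co-receptors, Ir25a, Ir76b and Ir93a had log2 fold changes below 0, like Orco, and Ir8a lay near 0. Ir25a, the most widely used of them, had 358, 321 and 243 in the mutant libraries against 418, 367 and 366 in the control libraries, with no overlap (-0.32, the authors' deposited table, adjusted p = 0.742). Ir76b had 280.5, 325.5 and 250.0 in the mutant libraries against 361, 375 and 320 in the control libraries. The shallowest control library lay within the mutant range (-0.30, the authors' deposited table, adjusted p = 0.704). Ir8a, the partner of acid receptors, had 153, 191 and 156 in the mutant libraries against 142, 173 and 183 in the control libraries. These overlapped throughout, and its log2 fold change in limma was 0.01 with a standard error of 0.19. Ir93a, used in humidity and temperature sensing, was low at 16.4, 10.9 and 11.9 in the mutant libraries against 32.5, 15.8 and 14.9 in the control libraries, and its control libraries were spread more widely than the difference. Of these 4 genes and Orco, 0 were called in the authors' deposited table.

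**Figure D3:**
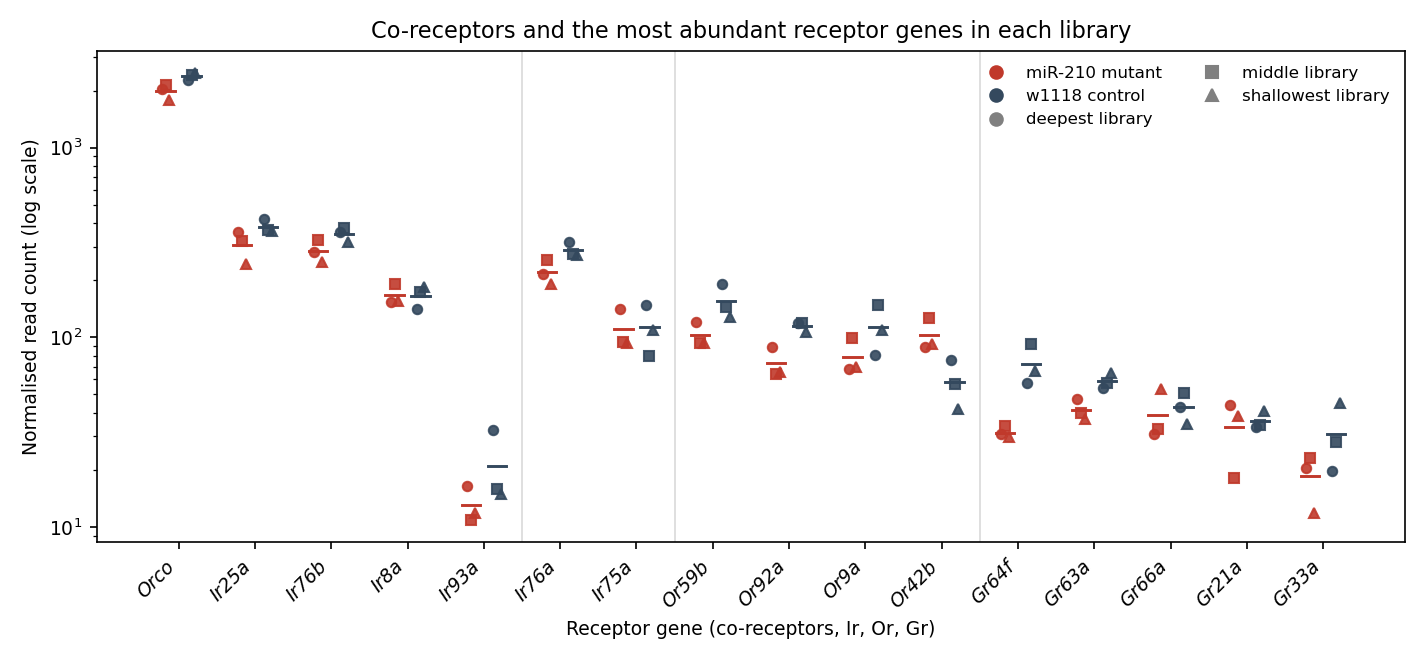
Normalised read counts, on a log axis, of the co-receptors and the most abundant Ir, Or and Gr genes in each library; lines are group means. Orco, with means of 1987 in the mutant against 2380 in the control, lies far above every tuned receptor, and the mutant libraries of Or92a and Gr64f sit below those of the control while those of Or42b sit above.

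Among tuned odorant receptors, 0 of 29 judged genes were called in the authors' deposited table, against 5.10% of tested genes at the floor. Of the 29, 4 (13.8%) had an unadjusted p under 0.05, near the 13.0% of tested genes. A log2 fold change below 0 was found for 22 (75.9%), against 52.5% of tested genes. The largest negative log2 fold change was that of Or85a, which responds to a fruit ester. Or85a had 7.19, 15.7 and 19.3 in the mutant libraries against 26.7, 31.6 and 27.9 in the control libraries. The groups did not overlap, and the log2 fold change was -1.06 (the authors' deposited table, adjusted p = 0.348). Or42a, of the maxillary palp, had 18.5, 15.7 and 14.9 in the mutant libraries against 29.0, 28.8 and 24.9 in the control libraries, also without overlap (-0.75, the authors' deposited table, adjusted p = 0.532). Or85f, a detector of wasp odours, had 25.7, 20.6 and 16.4 in the mutant libraries against 31.4, 49.3 and 20.9 in the control libraries and overlapped (-0.69, the authors' deposited table, adjusted p = 0.733).

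The most positive Or genes were Or42b and Or47a, receptors for fruit esters. Or42b had 88.4, 127 and 92.2 in the mutant libraries against 76.1, 56.7 and 41.8 in the control libraries. Every mutant library exceeded every control library, with a log2 fold change of 0.81 (the authors' deposited table, adjusted p = 0.265). Or42b thereby stood at rank 5 of the receptors per kilobase in the mutant and rank 17 in the control. Or47a had 29.8, 26.6 and 50.6 in the mutant libraries against 26.7, 21.4 and 13.0 in the control libraries, an overlap of 1 mutant and 1 control library (0.78, the authors' deposited table, adjusted p = 0.626). Or47a shares 163 exon bases with Cpr47Ea on the opposite strand. Or19b followed at 0.28 (the authors' deposited table, adjusted p = 0.907), with 47.3, 37.5 and 35.7 in the mutant libraries against 30.8, 36.3 and 32.9 in the control libraries. Its near-identical copy Or19a was not analysed here, and reads of the pair may not be separable.

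By organ, 23 of the 34 antennal Or genes with rows were judged, with 0 called, 17 values below 0, 6 above and a median of -0.24 in the authors' deposited table. The 17 are 73.9% of the judged antennal genes, against 52.5% of tested genes at the floor. These antennal genes include receptors for single biologically marked odours. Or56a, the geosmin receptor, had 31.9, 31.5 and 23.8 in the mutant libraries against 20.3, 41.9 and 32.9. in the control libraries Or67d, the receptor for the male pheromone cis-vaccenyl acetate, had 22.6, 14.5 and 32.7 in the mutant libraries against 40.6, 32.6 and 28.9 in the control libraries, and Or47b, used in male courtship, had 43.2, 46.0 and 47.6 in the mutant libraries against 38.9, 51.2 and 52.8. in the control libraries All 3 overlapped between the groups. Of the maxillary palp genes 5 of 6 were judged, with 4 values below 0 (80%) and a median of -0.21 in the authors' deposited table. Of 8 genes described from larvae, Or63a alone reached the floor, with 56.5, 71.4 and 64.0 in the mutant libraries against 88.3, 96.7 and 73.7 in the control libraries. The Or63a groups did not overlap, and the gene was not called (-0.44, the authors' deposited table, adjusted p = 0.654).

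Neurons that express different receptors share sensilla, which allows receptors of neighbouring neurons to be set side by side. These groupings were made after values had been seen and are given without a test. In the large basiconic sensillum ab1 the receptors lay on both sides. Or42b of 1 neuron was higher in every mutant library, whereas Or92a, the diacetyl receptor of its neighbour, had 89.4, 64.1 and 65.5 in the mutant libraries against 119, 119 and 107 in the control libraries, with no overlap (-0.65, the authors' deposited table, adjusted p = 0.223). The carbon dioxide receptor of the third neuron is made of Gr63a and Gr21a. Gr63a had 47.3, 39.9 and 37.2 in the mutant libraries against 54.0, 57.7 and 64.8 in the control libraries, with no overlap, whereas Gr21a had 44.2, 18.1 and 38.7 in the mutant libraries against 33.7, 34.4 and 40.9 in the control libraries and overlapped. Their log2 fold changes were -0.49 (adjusted p = 0.631) and -0.10 (adjusted p = 0.982) in the authors' deposited table.

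In sensillum ab2 both receptors were on the same side. Or59b, the receptor for methyl acetate and the most abundant tuned Or gene of the control per kilobase, had 120, 93.2 and 93.7 in the mutant libraries against 192, 144 and 129 in the control libraries. These did not overlap (-0.60, the authors' deposited table, adjusted p = 0.361), nor did those of its partner Or85a, given above. In sensillum ab3, Or22a had 44.2, 39.9 and 28.3 in the mutant libraries against 60.4, 46.5 and 47.8 in the control libraries, without overlap, whereas its close paralogue Or22b, made in the same neuron, had 66.8, 53.2 and 47.6 in the mutant libraries against 58.6, 67.0 and 54.8 in the control libraries and overlapped. Reads of this pair may be split between the copies. Or85b of the other ab3 neuron had 44.2, 24.2 and 40.2 in the mutant libraries against 37.2, 36.3 and 33.9 in the control libraries, averaging 36.2 in the mutant against 35.8 in the control.

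Coeloconic sensilla were not set side by side here, and their receptors are given below. In the other sensilla that were, the groups overlapped for every judged receptor but Or42a. Or67c of ab7, under the floor, did not overlap either, with 5.14, 8.47 and 4.46 in the mutant libraries against 16.3, 9.30 and 8.97 in the control libraries (-0.95, the authors' deposited table, adjusted p = 0.75). In ab8, Or9a had 67.8, 99.2 and 69.9 in the mutant libraries against 80.7, 148 and 110 in the control libraries, and Or43b had 74.0, 64.1 and 71.4 in the mutant libraries against 83.0, 73.5 and 61.8. in the control libraries In palp sensillum pb1, Or42a was lower without overlap while Or71a, which responds to plant phenols, had 43.2, 36.3 and 16.4 in the mutant libraries against 33.1, 58.6 and 32.9. in the control libraries In pb3, Or59c had a mean of 71.2 in both groups. Its mutant libraries ran from 43.1 to 89.4 and its control libraries from 62.8 to 78.4. Of the genes in this paragraph, Or43b shares 575 of its 1412 exon bases with Cul1 on the opposite strand.

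**Figure D4:**
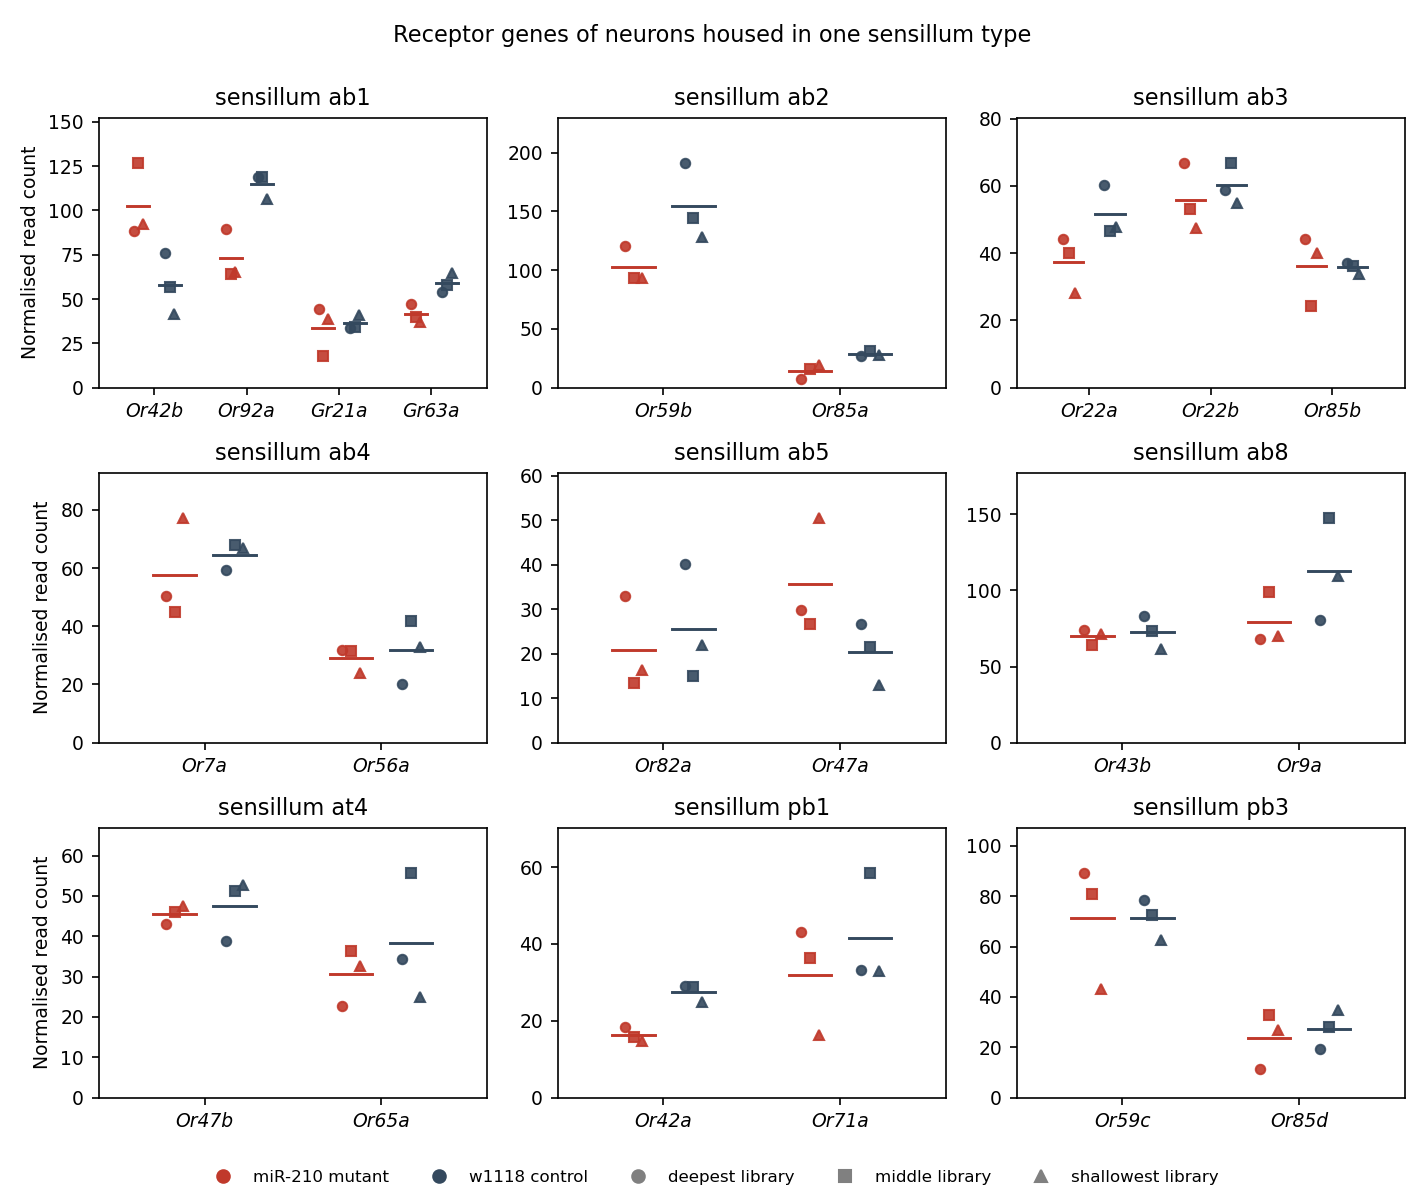
Normalised read counts of judged receptor genes in each library, grouped by the sensillum type whose neurons express them; lines are group means. In ab1 Or42b has means of 103 in the mutant against 58.2 in the control, while Or92a has 73.0 in the mutant and 115 in the control; in ab2 both genes are lower in the mutant.

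Among gustatory receptors, 1 of 10 judged genes fell, Gr64f, and 0 rose. Over all tested genes at the floor, 2.17% were called lower and 2.93% higher. With so few genes, 1 call is not a result about the class. Gr64f (FBgn0052255, dm6 chr3L:4035799-4037575, plus strand, protein-coding) is the co-receptor of sugar-sensing neurons. It had 30.8, 33.9 and 29.8 normalised reads in the mutant libraries, from 30, 28 and 20 reads. The control libraries had 57.5, 92.1 and 66.8, from 99, 99 and 67 reads. The mutant libraries were close together and all below the lowest control library, 2.29-fold lower on average, with a log2 fold change of -1.19 (the authors' deposited table, adjusted p = 0.0248). The means were 31.5 ± 2.14 in the mutant and 72.1 ± 17.9 in the control (SD, n = 3 libraries each). limma gave -1.14 with a standard error of 0.25 and an adjusted p of 0.127, so the call did not hold there. Gr64f shares 53 of its 1446 exon bases with CG11593 on the opposite strand.

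The other sugar receptors were low. Gr64a, of the same gene cluster, had 18.5, 15.7 and 7.44 in the mutant libraries against 22.1, 15.8 and 24.9 in the control libraries, which overlapped (-0.57, the authors' deposited table, adjusted p = 0.852). Gr43a, the fructose receptor, which is also expressed in the brain, lay on the other side with 22.6, 35.1 and 29.8 in the mutant libraries against 15.7, 27.0 and 13.9 in the control libraries and overlapped too (0.63, the authors' deposited table, adjusted p = 0.753). Gr61a averaged 11.3 in the mutant against 16.3 in the control, and Gr5a, the trehalose receptor, 4.81 in the mutant against 1.77 in the control, both under the floor. Gr5a shares 1108 exon bases with an antisense RNA, and Gr43a shares 155 of its 1527 exon bases with Dhx15 on the opposite strand. The 5 sugar receptors with rows summed to 90.4, 104 and 77.4 in the mutant libraries against 115, 153 and 123 in the control libraries, without overlap. Gr64f made up the largest part of both group means. Among these genes, only for Gr64f did all mutant libraries lie below all control libraries. Gr64a and Gr61a had log2 fold changes below 0 and overlapped, while Gr43a and Gr5a had values above 0. The summed difference therefore says nothing about sugar receptors other than Gr64f.

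Receptors shared by bitter neurons were not called. Gr66a had 30.8, 32.7 and 53.6 in the mutant libraries against 43.0, 51.2 and 34.9 in the control libraries, and Gr33a had 20.6, 23.0 and 11.9 in the mutant libraries against 19.7, 27.9 and 44.8. in the control libraries Gr32a, also used in taste of male pheromone, had 20.6, 23.0 and 19.3 in the mutant libraries against 36.0, 29.8 and 13.0. in the control libraries All 3 overlapped. Gr39a had 48.3, 12.1 and 2.98 in the mutant libraries against 44.7, 16.7 and 2.99 in the control libraries, so its level differed over 10-fold between libraries of one genotype and hardly between genotypes. Without the deepest library the Gr39a mean was 7.54 in the mutant and 9.87 in the control, instead of 21.1 (mutant) and 21.5 (control). Gr32a shares 164 of its 1623 exon bases with CG6230 on the opposite strand. Over the 5 genes of this list the sums were 121, 90.7 and 87.8 in the mutant libraries against 145, 126 and 97.6. in the control libraries

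Among ionotropic receptors, 1 of 15 judged genes rose, Ir68a, and 0 fell. The shares over all tested genes at the floor were 2.93% called higher and 2.17% lower, so 1 call is again not a result about the class. Ir68a (FBgn0036150, dm6 chr3L:11232972-11236218, minus strand, protein-coding) is needed for the response of antennal hygrosensory neurons to moist air. It had 73.0, 100 and 52.1 in the mutant libraries, from 71, 83 and 35 reads, against 38.9, 26.0 and 28.9 in the control libraries, from 67, 28 and 29 reads. Every mutant library exceeded every control library, 2.40-fold on average, with a log2 fold change of 1.26 (the authors' deposited table, adjusted p = 0.0359). The means were 75.2 ± 24.3 in the mutant and 31.3 ± 6.75 in the control (SD, n = 3 libraries each). limma gave 1.21 with a standard error of 0.31 and an adjusted p of 0.187, so this call did not hold there. Ir68a shares no exon bases with another annotated gene.

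The partners of Ir68a in humidity sensing were not called. Ir40a, needed for dry air, had 69.9, 41.1 and 43.1 in the mutant libraries against 66.8, 47.4 and 60.8 in the control libraries (-0.18, the authors' deposited table, adjusted p = 0.953), and the co-receptors Ir25a and Ir93a had log2 fold changes below 0. Whether Ir68a differed from these genes in its response was not tested. Ir64a, which senses acids in the sacculus, a pit of the antenna, lay nearest to a further call. It had 43.2, 24.2 and 29.8 in the mutant libraries against 57.5, 71.6 and 68.7 in the control libraries. The groups did not overlap, and the log2 fold change was -1.01 (the authors' deposited table, adjusted p = 0.0976). Its co-receptor Ir8a was level between the groups, as given above.

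**Figure D5:**
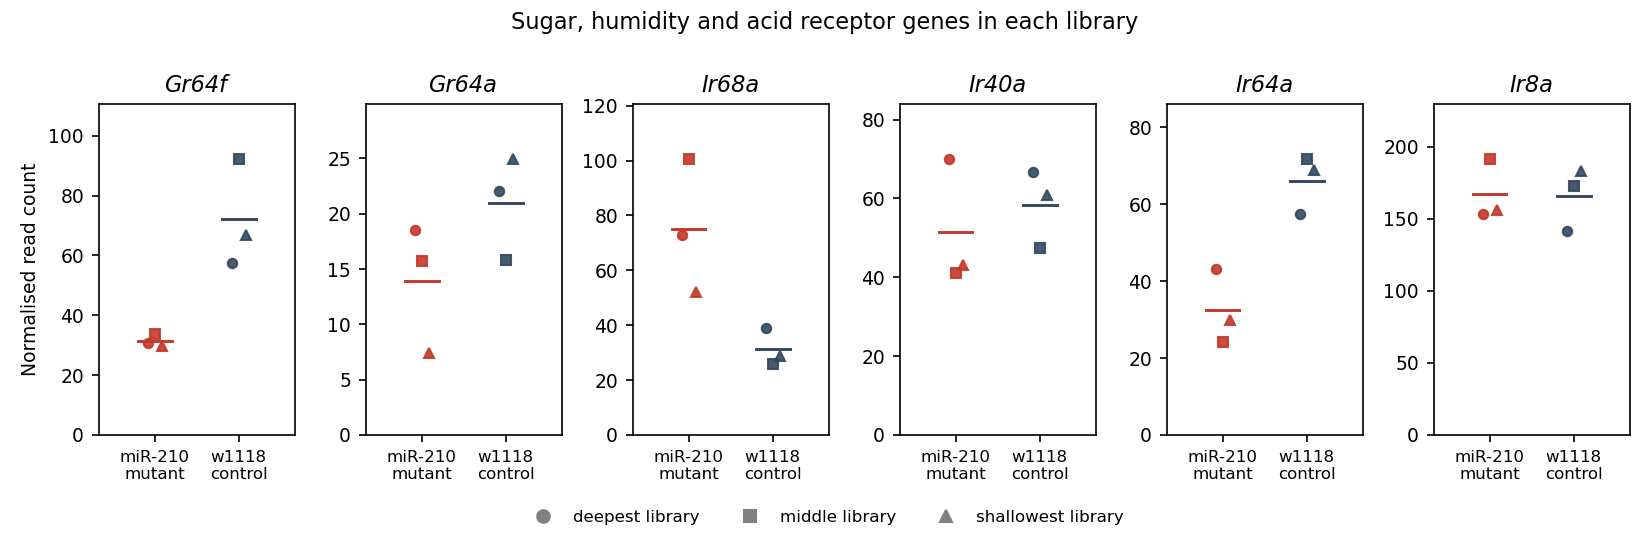
Normalised read counts in each library for Gr64f and its cluster neighbour Gr64a, for the humidity receptors Ir68a and Ir40a, and for the acid receptor Ir64a with its co-receptor Ir8a; lines are group means. Gr64f and Ir64a lie lower and Ir68a higher in all mutant libraries, while the other 3 genes overlap.

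The amine and acid receptors of coeloconic sensilla filled the rest of the class. Ir76a, a receptor for phenylethylamine and the most abundant tuned receptor of the head, had 216, 255 and 190 in the mutant libraries against 316, 276 and 272 in the control libraries. These did not overlap (-0.39, the authors' deposited table, adjusted p = 0.536). It shares 297 of its 2109 exon bases with CG14102 on the opposite strand. Ir75a, the acetic acid receptor, had 142, 94.4 and 93.7 in the mutant libraries against 149, 80.0 and 110 in the control libraries, with the deepest library highest in both groups. Ir84a, a receptor for phenylacetaldehyde that promotes courtship, had 20.6, 19.4 and 31.2 in the mutant libraries against 13.4, 18.6 and 16.9 in the control libraries. The Ir84a groups parted by less than 1 normalised read (0.54, the authors' deposited table, adjusted p = 0.819). Ir75d had 34.9, 27.8 and 19.3 in the mutant libraries against 20.9, 19.5 and 22.9 in the control libraries, but 2098 of its 2312 exon bases are shared with COX6AL2 on the same strand, so its reads cannot be assigned to it alone.

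Ir62a varied widely between libraries of each genotype. It had 128, 62.9 and 26.8 in the mutant libraries against 184, 46.5 and 67.8 in the control libraries, with a log2 fold change of -0.45 (adjusted p = 0.932, the authors' deposited table). Without the deepest library the Ir62a means were 44.8 in the mutant and 57.1 in the control, instead of 72.7 (mutant) and 99.4 (control). With Ir75b, Or82a and Gr39a it was 1 of 4 judged members at least 2-fold higher in the deepest library than in the others of its group in both genotypes. For Ir75b the control mean without the deepest library was 37.5 instead of 60.2. None of the 4 was called.

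The deepest libraries differed from the others of their group to a varying degree by gene list. The median log2 ratio of deepest to other libraries over the judged receptors was 0.26 in the mutant and 0.08 in the control, against 2.34 in the mutant and 2.17 in the control over 7 recovered genes of the 8 pan-neuronal ones, such as elav and brp. It was 1.47 in the mutant and 1.70 in the control for transcription factors of receptor neurons, and 0.42 in both for ciliated sensory neuron genes. For photoreceptor genes it was -0.28 in the mutant and -0.33 in the control, over only the 2 recovered of the 11 listed, Rh2 and Rh5. These values are given without a test. Within the deepest libraries the median fold change of the judged receptors was -0.22 on the log2 scale, and within the other 4 libraries -0.27. When the model held a term for the deepest libraries, limma called 6 of the 55 judged members, a smaller share than the 19.7% of all genes at the floor. They were Gr64f (adjusted p = 0.00949), Ir64a (0.0234), Or59b (0.0291) and Or92a (0.0317), lower in the mutant, and Ir68a (0.0153) and Or42b (0.0467), higher. With the deepest libraries left out it called 3 of the 55, Gr64f, Ir64a and Or42b, again a smaller share than the 9.36% of genes. Ir68a then had an adjusted p of 0.0525. limma called 0 judged members with any single library left out, where the share of all genes called was 0.628%, 0.253% and 0.331% without the deepest, middle and shallowest mutant library and 0.793%, 0.264% and 0.253% without those of the control. It also called 0 with a pseudocount of 0.5 or 5 (1.06% and 1.27% of genes), without a filter on low values (1.08%), with libraries scaled to equal totals (1.11%) and with TMM factors (1.15%).

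At the floor of 20 the judged genes with the smallest levels included Ir84a (larger mean 23.7), Or2a (23.4), Or67a (23.2), Ir51b (23.0), Gr39a (21.5), Ir93a (21.1), Gr64a (20.9) and Gr28b (20.4). Just under it stood Ir60a (19.8), Or35a (19.2), Or33c (18.1), Gr61a (16.3) and Or23a (15.6). Of the 93 members under the floor, 38 Gr, 34 Ir and 21 Or, the authors tested 43 and called 0, with 1 at an unadjusted p under 0.05. That gene was Or22c, described from larvae, with 1 read in the 3 mutant libraries and 18 in the control libraries (the authors' deposited table, adjusted p = 0.322). Both means were under 3 for 54 members, and 11 were at 0 in a group, 8 in the mutant and 3 in the control. limma fitted 60 of the 93 and called 0 (smallest adjusted p = 0.288), with 4 at an unadjusted p under 0.05: Or22c, Gr22f and Or65b, with lower means in the mutant, and Gr36c, with a higher one. The libraries of these 4 genes, of Or67c and of Gr5a, 6 of the 93 members, did not overlap between the groups. For neither count was the share over all genes under the floor computed, so neither is a result about these members. Of these 6 genes none averaged above 12.7 in either group, and counting error is large at such levels.

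Other genes of the chemosensory organs did not follow the receptors as one group. Of 16 listed proteins of olfactory sensilla other than receptors, 15 were judged and 2 rose: lush, an odorant-binding protein of pheromone sensilla, and Est-6, an esterase of the antenna. These are 13.3% of the judged genes of a short list, against 2.93% of all tested genes called higher at the floor, and no test was made. The log2 fold changes were 0.81 (adjusted p = 0.0265) for lush and 0.92 (adjusted p = 0.0195) for Est-6 in the authors' deposited table. The libraries of lush had 1387, 1692 and 1872 in the mutant against 749, 1105 and 962 in the control. Over these 15 genes 11 values were above 0, with a median of 0.27. Below 0 were 26.7% of them, against 52.5% of tested genes at the floor. The 14 recovered members summed to between 41199 and 58406 in the mutant libraries and between 32527 and 49992 in the control libraries. Snmp1, which olfactory neurons of pheromone sensilla and their support cells make, had -0.02 (the authors' deposited table, adjusted p = 0.988).

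Of 9 other chemosensory genes with rows, 5 were judged, 4 with values below 0, and CheB42c, of a family of secreted taste proteins, fell. Among all tested genes at the floor, 52.5% had values below 0 and 2.17% were called lower. CheB42c had 32.9, 35.1 and 20.8 in the mutant libraries against 48.8, 124 and 133 in the control libraries (-1.77, the authors' deposited table, adjusted p = 0.0135). Its neighbour CheB42b had 6.17, 7.26 and 11.9 in the mutant libraries against 16.3, 33.5 and 43.8 in the control libraries (-1.90, the authors' deposited table, adjusted p = 0.0546). Both had no overlap between the groups. Of transcription factors of receptor neurons 5 of 6 were judged and of ciliated sensory neuron genes 8 of 9, with 5 and 7 values below 0, 0 called, 0 at an unadjusted p under 0.05 and medians of -0.40 and -0.28 in the authors' deposited table.

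Pan-neuronal genes lay on the same side as the receptors. All 8 had log2 fold changes below 0 with a median of -0.81 in the authors' deposited table. The authors tested 7 of them, all but para, of which 0 were called and 1 had an unadjusted p under 0.05. The 7 recovered members summed to between 7177 and 22178 in the mutant libraries and between 14139 and 38747 in the control libraries, which overlapped. Photoreceptor genes had all 11 values below 0, a median of -1.67 and 9 called lower in the authors' deposited table. Among all tested genes at the floor, 52.5% were below 0 and 2.17% called lower. The part of neuronal and photoreceptor RNA in the lower receptor levels was not tested.

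By chromosome arm, both called receptors and Ir64a lie on 3L, which holds 17 of the 55 judged members, 14 of them with a log2 fold change below 0 in the authors' deposited table. On 2R 6 of 11 judged members were below 0, on 2L 10 of 10, on 3R 9 of 11 and on X, the chromosome of mir-210, 4 of 6. Over all arms, 52.5% of tested genes at the floor were below 0. The shares over all genes of each arm were not computed, so these counts single out no arm.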

How the data were processed

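Per the labels, total RNA of adult heads was extracted with Trizol for Illumina sequencing. The submitters' processing notes list HISAT2, featureCounts, DESeq, FastQC and the build dm6 with no roles or versions; strandedness is not given in the sources used here. The authors deposited 1 table with a mean signal per group (read counts divided by a size factor, averaged over 3 libraries), a log2 fold change of mutant over control, a p-value and an adjusted p-value, per the file headers. Adjusted values follow Benjamini-Hochberg over 11155 genes. The other 2386 genes are listed at 1 and were taken as not tested. Main results are those the authors call at an adjusted p under 0.05.

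Each mean is a whole-number combination of 3 steps, 1 per library. Every mean of at most 10000 had exactly 1 solution (13193 mutant and 13225 control means, within 4.0e-11 of a read), giving 13169 genes (97.3%) in all libraries, checked on simulated means. Size factors were 0.973, 0.826 and 0.672 in the mutant and 1.72, 1.08 and 1.00 in the control. limma 3.58.1 in R 4.3.3 was run on log2(normalised count + 1) where a gene's mean reached 1, a scale that understates fold changes of low genes, and was tested on simulated data. Coordinates of all 148 members matched Ensembl's BDGP6 annotation, from which shared exon bases were counted; 7 judged members share some. Gene levels were compared per kilobase of the deposited gene length.

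Members and lists were chosen with earlier results of these data known. Named genes were the called members, the co-receptors and carbon dioxide receptors, in each class the 5 with the largest means and the 3 most positive and 3 most negative among judged members, and those with a larger mean between 15 and 25; others were named for their sensillum, organ or role after their values were seen. Alternatives were other floors and thresholds, scalings, pseudocounts, filters, a term for the deepest library and libraries left out.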

Additional observations from a re-analysis of the deposited data

How the results depend on the processing

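The authors' deposited table called 2 receptors under each of the floors of 10 and 50 and with no floor, and 3 at an adjusted p under 0.1. limma on the recovered libraries called 0 (smallest adjusted p = 0.127), against 1.18% of all genes at the floor. It had 8 at an unadjusted p under 0.05, a count for which the share over all genes was not computed. With a model term for the deepest libraries it called 6 (19.7% of genes), and with those libraries left out 3 (9.36% of genes). It called 0 with any single library left out, where the smallest adjusted p ranged from 0.123 to 0.422, and 0 with other pseudocounts, scalings or no filter; the cause was not tested. Over all 14 limma settings the log2 fold change of Gr64f ranged from -1.29 to -0.96 (adjusted p from 0.00949 to 0.422) and that of Ir68a from 0.98 to 1.44 (0.0153 to 0.531). Without single libraries the median over judged receptors ranged from -0.33 to -0.16, and the ratio of class sums from 0.821 to 0.882 for Or, from 0.731 to 0.829 for Gr and from 0.801 to 0.933 for Ir. Of 494 alternative values for 38 named genes, 462 stayed on the same side of the threshold or within 1 SD between libraries. Of the others, 23 were weaker, 6 stronger and 3 moved. Only Gr64f and Ir68a were called in the authors' deposited table, so for the other named genes the same side mostly meant staying uncalled. limma called Gr64f in 2 of its 14 settings and Ir68a in 1. No paired analysis was possible because the recovered libraries carry no replicate numbers. Many receptors had few reads per library, so counting error limits small differences.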
